A study of Caenorhabditis elegans with 34 samples.

Results

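The bath and math genes of Caenorhabditis elegans were followed through the first 12 days of life. The members are every gene of the count table whose symbol is bath- or math- followed by a number, which gave 73 of the 20222 worm genes, 36 of them bath and 37 math. The symbols are taken as the annotation gives them, and the protein domains behind them were not checked here. Genes that carry the same domains under another name, such as mel-26, are not members.

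The samples were large populations of whole animals collected on each day from 1 to 12, and age was counted from the day on which hypochlorite-synchronized larvae were first fed. All carried spe-9(hc88), a temperature-sensitive allele that blocks fertilization, and were kept at 25 °C on E. coli OP50, so every day shares the mutation and the temperature. Each day had 3 samples, except that days 8 and 12 had 2 each, for 34 in all. The labels name the age and the tissue (whole body) only. They do not say whether samples of one day came from separate cultures, so the p-values measure the spread between these samples, which may be partly technical.

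BTB and MATH are protein interaction domains. In C. elegans, proteins that hold both can act as substrate adaptors of the ubiquitin ligase built on the cullin CUL-3: the BTB domain binds the cullin and the MATH domain binds the protein to be ubiquitinated. The best known of them is MEL-26, which hands the microtubule-severing katanin subunit MEI-1 to CUL-3 in the early embryo. The bath symbol stands for genes with BTB and MATH domains, and math for genes with MATH domains. One math gene has a different known role, since MATH-33 is a deubiquitinating enzyme of the USP7 kind that acts on the transcription factor DAF-16. For most other members no role is stated here.

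The libraries held between 19202058 and 27587987 counts on genes, with a median of 21606958.5. Samples of the same day correlated at 0.964 to 0.99 over detected genes (log2 CPM, 32 pairs). Levels are given as CPM, the count relative to the effective library size after TMM normalization over all 34 samples, and per kilobase of exon where different genes are compared. The day 4 replicate 2 and day 5 replicate 3 libraries stood apart: long genes were low in them, with slopes of log2 level on log2 exon length of -0.583 and -0.534, against -0.303 to 0.202 in the other samples of days 2 to 12. The slope also differed between the ages compared here. It was 0.227 to 0.317 on day 1, -0.259 to 0.0677 on days 2 and 3, and 0.102 to 0.202 on days 11 and 12. Markers of oocytes, intestine, neurons and body wall muscle were all present in the whole animals on day 2.

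Most members lie close together. On WBcel235, 61 of the 73 genes are on chromosome II, and 58 of these (23 bath and 35 math) lie on its left arm between math-34, which starts at 1028972, and bath-31, which ends at 3733181. Members no more than 20000 bases apart formed 9 runs that held 55 genes. The largest run, of 18 genes between 1866381 and 1922765, had 15 math genes followed by bath-4, bath-7 and bath-2. A run of 12 between 1989310 and 2046656 mixed both families, and a run of 7 between 3343731 and 3378834 had only bath genes (bath-28, bath-30, bath-29, bath-27, bath-23, bath-10 and bath-9). Outside this arm lay 13 bath genes, among them bath-40 on chromosome I (14647782 to 14651288), bath-41 and bath-42 on III (6720415 to 6722258 and 8161455 to 8163383) and bath-44 on II (7394955 to 7397351). Only math-46 on I and math-33 on V (11113907 to 11118824) represented math elsewhere.

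Neighbouring copies and overlapping genes limit what single values can show, since the handling of strand and of reads that map to several places is not given in the sources used here. In all, 10 members overlap an annotated gene on the same strand and 10 a gene on the other strand. Among members, math-3 and math-26 overlap each other on the same strand, bath-46 and bath-26 overlap by 28 bases on opposite strands, and bath-47 and bath-33 by 22. Of the genes described in full, bath-9, bath-21, bath-28 and bath-38 overlap another gene on the same strand, and bath-29, bath-41 and math-33 (with scb-1) on the other. The values of these genes are uncertain where reads could be counted for either partner.

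Over all samples together, the typical bath gene had a higher level than the typical math gene, although on day 1 the summed CPM of math was above that of bath. The median level over all samples was 7.68 CPM per kilobase for bath and 0.517 for math. The 5 genes with the highest level per kilobase were bath-41 (137.5 CPM per kilobase), bath-42 (135.6), bath-40 (115.8), bath-30 (74.0) and bath-44 (52.4), and math-33 followed with 49.6. Of these, bath-30 alone lies on the left arm of chromosome II. By counts not scaled to length, bath-42, math-33, bath-41, bath-40 and bath-44 together took 62.12% of all member CPM. At the other end, math-13, math-16, math-19, math-25 and math-31 had at most 5 counts in every sample.

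The summed level of the families differed most between days 1 and 2. The bath sum was 226 CPM ± 11.3 (SD, n = 3) on day 1 and 1300 CPM ± 30.6 (n = 3) on day 2. The sum of the math genes other than math-33 went the other way, from 436 CPM ± 129 (n = 3) to 67.8 CPM ± 14.5 (n = 3). A few genes carried most of this sum on day 1. They were math-4 (109, 194 and 86.8 CPM), math-26 (92.1, 121 and 68.6 CPM), math-3 (55.7, 74.4 and 49.6 CPM) and math-20 (57.9, 84.7 and 29.2 CPM). Reads of math-3 and math-26 may be shared. After day 2 both sums stayed within narrower limits. The daily mean of the bath sum ranged from 1160 CPM (± 68.6, n = 2) on day 8 to 1428 CPM (± 68.2, n = 3) on day 3, and stood at 1301 CPM ± 34.5 (n = 2) on day 12. The sum of math without math-33 lay between 45.5 CPM ± 5.32 (n = 3) on day 3 and 63.2 CPM ± 16.8 (n = 2) on day 8, and was 53.2 CPM ± 19.1 (n = 2) on day 12.

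**Figure D1:**
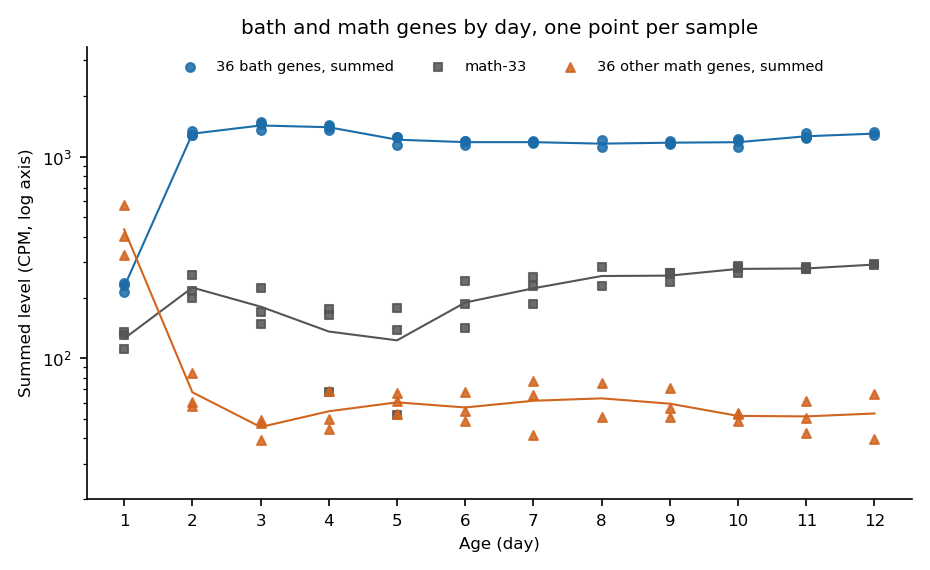
Summed level in CPM (log axis) of the 36 bath genes, of math-33 and of the 36 other math genes against age in days, with 1 point per sample and lines through the daily means. The bath sum went from 226 to 1300 CPM between days 1 and 2 while the other math genes went from 436 to 67.8 CPM, and math-33 in the day 4 replicate 2 and day 5 replicate 3 libraries lay below its other samples.

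The comparison of day 2 with day 1 sets the first day of the age model against the day before it. In it, most of the tested bath genes rose and most of the tested math genes fell. Of 42 members with enough counts to test, 35 (83.3%) changed at an adjusted p under 0.01 (edgeR quasi-likelihood test, Benjamini-Hochberg over 12008 genes), where 69.8% of all tested genes did. Of the 42 tested, 24 (57.1%) rose, with a background of 33.8%, and 11 (26.2%) fell, with a background of 35.9%. Of the 25 bath genes tested, 21 rose and 1 fell, with a median log2 difference of 3.72. Of the 17 math genes tested, 3 rose and 10 fell, with a median of -1.66. The median over all tested genes was -0.12. In whole animals, fewer cells of a type and less RNA per cell cannot be told apart in these values.

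The largest rise was that of bath-30 in the all-bath run on the left arm of chromosome II. Its level was 0.847, 0.507 and 0.348 CPM in the day 1 samples and 83.0, 78.9 and 82.2 CPM in the day 2 samples, a log2 difference of 7.14 ± 0.261 (SE, adjusted p = 9.79e-07, edgeR). Its neighbours rose with it. The level of bath-29 went from 0.96, 0.761 and 0.522 to 43.3, 39.9 and 42.1 CPM (log2 5.78 ± 0.238, adjusted p = 1.41e-06), and that of bath-28 from 0.79, 0.659 and 0.58 to 25.3, 30.2 and 32.6 CPM (log2 5.42 ± 0.232, adjusted p = 1.6e-06). All 5 members tested in this run rose. The call of bath-10, 1 of the 5, was lost without replicate 1 (log2 2.16, adjusted p = 0.024) and without replicate 2 (log2 2.06, adjusted p = 0.015). In the run of 12, bath-1 was at 1.02, 0.558 and 0.464 CPM on day 1 and at 21.8, 23.3 and 25.2 CPM on day 2 (log2 5.09 ± 0.306, adjusted p = 5.37e-06). The samples of day 1 and day 2 did not overlap in these 4 genes.

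The abundant bath genes outside the left arm rose as well, from a higher base. The counts for bath-41 gave 11.9, 11.0 and 14.5 CPM on day 1 and 278, 251 and 245 CPM on day 2 (log2 4.36 ± 0.155, adjusted p = 8.78e-07). For bath-42 the values were 47, 55.8 and 50.8 CPM, then 261, 266 and 261 CPM (log2 2.35 ± 0.119, adjusted p = 2.81e-06). For bath-40 they were 52.1, 59.0 and 64.0 CPM, then 201, 174 and 199 CPM (log2 1.70 ± 0.128, adjusted p = 1.42e-05). The smallest rise among the 5 genes of highest level was that of bath-44, from 30.3, 38.6 and 31.4 CPM to 88.6, 98.5 and 93.7 CPM (log2 1.47 ± 0.136, adjusted p = 3.84e-05).

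One bath gene fell and 3 math genes rose. The bath gene was bath-38, with 39.7, 38.8 and 36 CPM on day 1 and 19, 19.7 and 16.7 CPM on day 2 (log2 -1.06 ± 0.139, adjusted p = 0.000248). Without replicate 1 the difference was -1.03 and lost its call (adjusted p = 0.012). The rising math genes were math-49, math-44 and math-33, the USP7-like enzyme, which was at 111, 130 and 135 CPM on day 1 and at 216, 258 and 199 CPM on day 2 (log2 0.83 ± 0.15, adjusted p = 0.00139). The call of math-33 was lost without replicate 1 (log2 0.80, adjusted p = 0.024) and in a fit of all 34 samples (log2 0.71, adjusted p = 0.028). That of math-49 was also lost without replicate 1 (log2 4.47, adjusted p = 0.016).

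**Figure D2:**
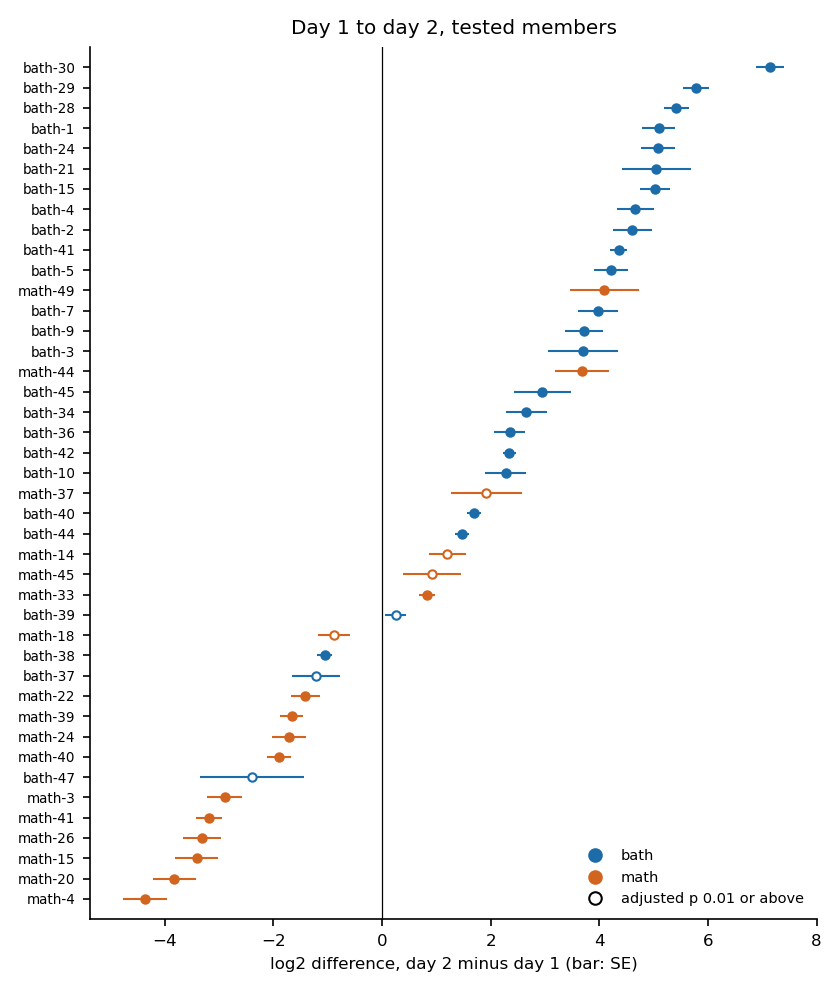
Log2 difference between day 2 and day 1 for the 42 tested members, ordered by size, with bars of 1 SE and open circles where the adjusted p was 0.01 or above. Most tested bath genes lie toward the upper end, up to bath-30 at 7.14, and most tested math genes toward the lower end, down to math-4 at -4.36.

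The 4 largest falls were in math genes on the left arm of chromosome II. The level of math-4 was 109, 194 and 86.8 CPM on day 1 and 4.55, 8.98 and 5.64 CPM on day 2 (log2 -4.36 ± 0.407, adjusted p = 4.06e-05). For math-20 it was 57.9, 84.7 and 29.2 CPM, then 4.00, 4.44 and 3.8 CPM (log2 -3.82 ± 0.398, adjusted p = 7.1e-05). The values of math-15 were 2.03, 3.65 and 2.32 CPM, then 0.222, 0.255 and 0.264 CPM (log2 -3.41 ± 0.402, adjusted p = 0.000136). For math-26, whose reads may be shared with math-3, they were 92.1, 121 and 68.6 CPM, then 7.00, 14 and 7.33 CPM (log2 -3.32 ± 0.348, adjusted p = 7.36e-05). In none of these 4 genes did samples of day 1 and day 2 overlap, and in all 4 the day 1 replicate 2 sample was the highest.

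A further 31 members had under 5 counts in too many of the 6 samples to be tested, 11 of them bath and 20 math. Among them bath-31 had 0 counts in every day 1 sample and 259, 281 and 209 counts on day 2, at least 63.4-fold higher against a floor of 3 counts per library. The gene bath-23 was also at 0 on day 1 and reached 23, 31 and 26 counts on day 2, at least 7.3-fold higher. Counts of bath-27, in the all-bath run, were 15, 3 and 2 on day 1 and 773, 717 and 701 on day 2. Those of bath-19 were 6, 0 and 0, then 290, 340 and 338. In the other direction, math-42 had 62, 71 and 64 counts on day 1 and 0 in every day 2 sample, at least 21-fold lower. The pair of overlapping genes bath-46 and bath-26 also ended low, bath-46 at 77, 67 and 136 counts and then 1, 1 and 6, and bath-26 at 36, 15 and 89 counts and then 0, 7 and 2.

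Over the whole table, with no filter, every day 2 sample lay above every day 1 sample for 39 of the 73 members, against 32.3% of all genes, and below for 18, against 33.7% of all genes. Among tested bath genes 21 lay above, 2 below and 2 overlapped, and among untested bath genes 8, 2 and 1 did. The math genes were more mixed: 5 above, 11 below and 1 overlapping among those tested, and 5, 3 and 12 among those not tested. When genes with 5 counts in any 3 of the 6 samples were admitted, a filter that a gene can pass through 1 day alone, 48 of 56 members tested were called. Of the 56, 32 (57.1%) rose, where 35.1% of all genes tested this way did, and 16 (28.6%) fell, where 35.7% did. The 48 called were the same 35 and 13 more, which included bath-31, bath-23, bath-27, bath-19, math-42, bath-46 and bath-26 and had passed through the day on which they were high. When 10 counts were asked for in every sample, 22 of 25 members tested were called. Of the 25, 12 (48%) rose (background 35.1%) and 10 (40%) fell (background 36.6%). Low day 1 values remove many bath genes from this test.

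Marker genes of other kinds moved between the same days. The summed level of 15 oocyte mRNAs was 26.2 to 37.5 CPM in the day 1 samples and 16127 to 17423 CPM in those of day 2, and all 13 that could be tested rose. On day 1 perm-2 and perm-4, which encode eggshell proteins, were at 0.0169 and 0.0749 CPM. The 10 larval molting genes together had 1691 to 5985 CPM on day 1 and 91.7 to 102.6 CPM on day 2, where 7 of 9 tested fell and 0 rose. Of the neuronal genes 8 of 10 fell and 1 rose, of the intestinal genes 6 of 9 fell, of the muscle genes 3 of 8 fell, and of the 3 sperm mRNAs tested 2 rose. The part of these shifts in the values of the bath and math genes was not tested.

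Across days 2 to 12 the families no longer moved apart. The age model fitted a third-degree polynomial of age to the 31 samples, and its linear coefficient is given in log2 per day. Of the 50 members tested, 35 (70%) had at least 1 coefficient past an adjusted p of 0.01, where 80.3% of all 13865 tested genes had. Rising members numbered 13, with a background of 36.9%, and falling members 14, with a background of 33.9%. The bath genes gave 9 rising and 7 falling of 32, with a median coefficient of -0.0049, and the math genes 4 rising and 7 falling of 18, with a median of -0.0077. The median over all tested genes was 0.0063. Scaled by library size alone, which moved the median of all genes to 0.050, 21 members rose, with a background of 50.8%, and 6 fell, with a background of 21.9%.

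**Figure D3:**
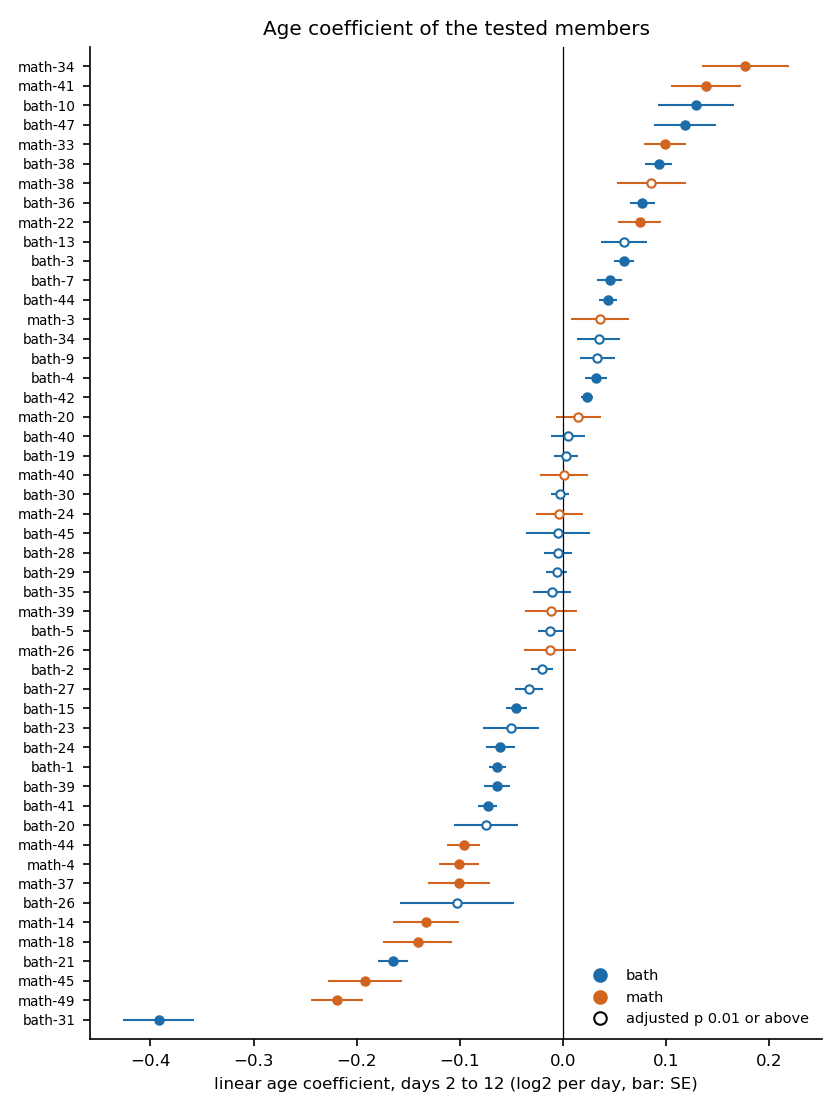
Linear age coefficient of the 50 tested members over days 2 to 12, in log2 per day, ordered by size, with bars of 1 SE and open circles where its adjusted p was 0.01 or above. The coefficients run from -0.392 for bath-31 to 0.176 for math-34, and bath and math genes are found at both ends.

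The strongest decline was that of bath-31, the gene without a count on day 1. Its level was 14.4, 14.3 and 11.0 CPM on day 2, 3.69, 7.14 and 6.16 CPM on day 5, 2.12, 1.5 and 2.40 CPM on day 7, and 1.38 and 0.607 CPM on day 12. The coefficient was -0.392 ± 0.0341 log2 per day (SE, adjusted p = 8.71e-12, edgeR). Every sample of day 7 lay below every sample of day 2, and both samples of day 12 lay below those of day 7.

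The next declines were smaller and mostly in genes of low level. The counts of math-49 gave 3.55, 3.52 and 2.58 CPM on day 2 and 0.518 and 0.364 CPM on day 12 (-0.219 ± 0.0252 per day, adjusted p = 3.17e-09). For math-45 the values were 2.22, 3.47 and 2.42 CPM on day 2, 4.98, 3.98 and 5.68 CPM on day 3, and 1.08 and 1.25 CPM on day 12 (-0.192 ± 0.0358, adjusted p = 1.51e-05). The course of bath-21 went from 11.0, 9.24 and 11.2 CPM on day 2 to 4.19 and 3.40 CPM on day 12 (-0.165 ± 0.0145, adjusted p = 1.19e-11). This gene overlaps annotated genes on both strands, among them cya-2. In math-18, levels of 1.28, 1.94 and 1.58 CPM on day 2 became 0.432 and 0.364 CPM on day 12 (-0.141 ± 0.0336, adjusted p = 0.000351). In math-14 they were 2.05, 1.84 and 1.79 CPM, then 0.648 and 1.58 CPM (-0.133 ± 0.0318, adjusted p = 0.000372). The call of math-14 was lost without replicate 1 (-0.105, adjusted p = 0.022). With library size scaling the coefficients of math-14 (-0.0895, adjusted p = 0.015) and math-18 (-0.0989, adjusted p = 0.011) lost their calls.

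Of the abundant genes, bath-41 declined. After 278, 251 and 245 CPM on day 2 it had 270, 312 and 340 CPM on day 3, then 182, 187 and 183 CPM on day 7, and remained near this level with 187 and 181 CPM on day 12. Its coefficient was -0.0731 ± 0.00905 log2 per day (adjusted p = 1.36e-08). With library size scaling the coefficient was -0.0295 and kept its call (adjusted p = 0.009). The other falling members were math-37, math-4, math-44, bath-39, bath-1, bath-24 and bath-15.

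Of the 6 members with the largest positive coefficients, math-33 had the highest level. It was at 216, 258 and 199 CPM on day 2, at 175, 67.8 and 164 CPM on day 4, at 177, 138 and 52.4 CPM on day 5, at 229, 186 and 252 CPM on day 7, and at 294 and 289 CPM on day 12. The coefficient was 0.0992 ± 0.0204 log2 per day (adjusted p = 5.86e-05). The 2 lowest values, 67.8 and 52.4 CPM, belong to the libraries in which long genes were low, and math-33 has 4225 bases of exon. Without these libraries the coefficient was 0.079. With the trend on length removed it was 0.040, less than the value reported by over 1.5 times, and kept its call (adjusted p = 0.003).

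The largest positive coefficients belonged to genes at low levels. In math-34 levels went from 0.0555, 0.204 and 0.105 CPM on day 2 to 1.20, 0.591 and 1.05 CPM on day 5, and were 0.994 and 0.283 CPM on day 12 (0.176 ± 0.0423 per day, adjusted p = 0.000373). Without replicate 1 its coefficient was 0.098 (adjusted p = 0.095), so the linear call rested on those samples. The level of math-41 was 2.67, 3.57 and 4.48 CPM on day 2, 0.944, 1.08 and 2.54 CPM on day 3, 7.70, 6.63 and 6.40 CPM on day 7, and 2.76 and 8.01 CPM on day 12 (0.139 ± 0.0338, adjusted p = 0.000452). Its day 12 samples span most of the range of the course.

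The level of bath-10 was 3.72, 4.24 and 2.06 CPM on day 2 and 1.36, 1.52 and 1.71 CPM on day 3, then 6.61, 9.61 and 17.2 CPM on day 5, and 6.83 and 4.73 CPM on day 12 (0.129 ± 0.0369, adjusted p = 0.0022). The value of 17.2 CPM, its highest, came from the day 5 replicate 3 library, which stood apart by length. The linear call was lost without replicate 1 (0.0993, adjusted p = 0.052) and without replicate 3, where the coefficient was as large (0.128, adjusted p = 0.011). Its neighbour bath-9 lies 367 bases away. For bath-47 levels were 0.222, 0.510 and 0.685 CPM on day 2, 3.07, 3.79 and 1.99 CPM on day 5, and 1.68 and 4.00 CPM on day 12 (0.118 ± 0.0298, adjusted p = 0.000658). The most regular of these courses was that of bath-38, at 19, 19.7 and 16.7 CPM on day 2, 33.1, 41.2 and 41.2 CPM on day 6, and 29.1 and 37.6 CPM on day 12 (0.0925 ± 0.0133, adjusted p = 2.24e-07). In every sample of days 5 to 12 bath-38 was above all samples of days 2 and 3.

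**Figure D4:**
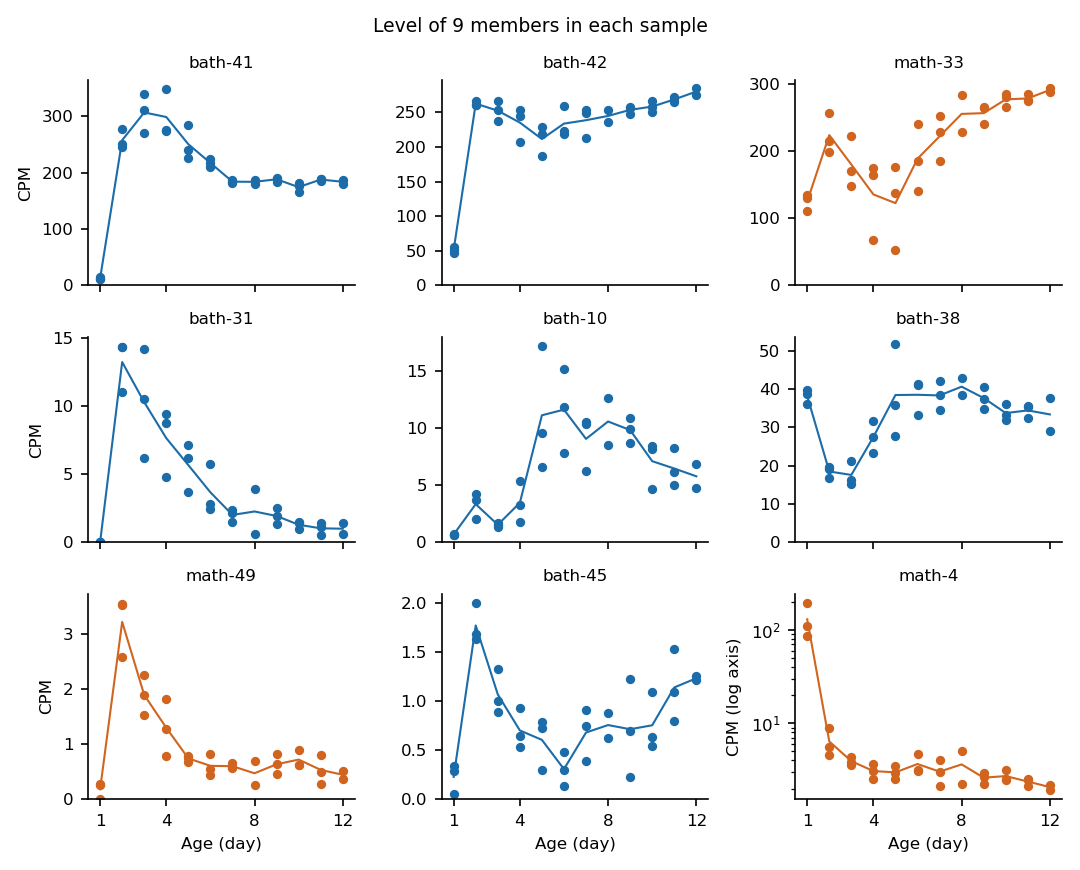
Level in CPM of 9 members in each sample against age in days, with lines through the daily means and a log axis for math-4. The panels show the decline of bath-31 from 14.4 CPM, the mid-life maxima of bath-10 and bath-38, and the 2 low math-33 samples of 67.8 and 52.4 CPM on days 4 and 5.

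Among the rising genes of higher level, bath-42 and bath-44 had small coefficients. From 261, 266 and 261 CPM on day 2, bath-42 went to 219, 187 and 228 CPM on day 5 and to 285 and 275 CPM on day 12, with a coefficient of 0.0232 ± 0.0061 log2 per day (adjusted p = 0.00101). Without replicate 1 the coefficient was about as large, at 0.0222, and its call was lost (adjusted p = 0.048). With the trend on length removed it was 0.0106 (adjusted p = 0.081), and with no filter 0.0133 (adjusted p = 0.074), over 1.5 times smaller than the value reported. For bath-44 the values were 88.6, 98.5 and 93.7 CPM on day 2, 78.9, 60.7 and 75.5 CPM on day 5 and 113 and 113 CPM on day 12 (0.0434 ± 0.00855, adjusted p = 3.35e-05). The remaining rising members were bath-36, math-22, bath-3, bath-7 and bath-4.

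Courses that bend were read from the quadratic coefficient, which was past the threshold for 16 members, with a background of 33.2%. It was positive, the sign of a course that dips or of a decline that flattens, for 10 of them (bath-1, bath-2, bath-13, bath-19, bath-21, bath-24, bath-42, bath-45, math-44 and math-49). In bath-21 and math-49 the lowest daily mean was on day 11 and day 12, respectively. In the other 8 it fell on days 5 to 8. The coefficient was negative for 6, whose highest daily mean fell on days 5 to 8 (bath-9, bath-10, bath-38, bath-47, math-34 and math-38). The cubic coefficient was past the threshold for 7, with a background of 11%. In all, 8 members, against a background of 9.56%, changed without a linear call.

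Of these 8, the 4 with the largest absolute quadratic coefficient were math-38, bath-45, bath-9 and bath-13. The level of math-38 was 1.05, 1.23 and 0.264 CPM on day 2, 6.30, 5.52 and 10.8 CPM on day 5, and 3.76 and 4.81 CPM on day 12 (quadratic adjusted p = 2.38e-05). Its value of 10.8 CPM came from the day 5 replicate 3 library, which stood apart by length. In bath-45 it was 2.00, 1.68 and 1.63 CPM on day 2, 0.297, 0.136 and 0.484 CPM on day 6, and 1.25 and 1.21 CPM on day 12 (quadratic adjusted p = 5.86e-05), so all samples of day 6 lay below both other days. The values of bath-9 were 6.83, 7.71 and 6.80 CPM on day 2, 9.51, 14.2 and 14.5 CPM on day 6, and 7.91 and 5.62 CPM on day 12 (quadratic adjusted p = 5.02e-05). Those of bath-13 were 2.61, 2.86 and 2.53 CPM on day 2, 0.729, 0.887 and 0.827 CPM on day 5, and 1.30 and 2.02 CPM on day 12 (quadratic adjusted p = 0.00354).

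**Figure D5:**
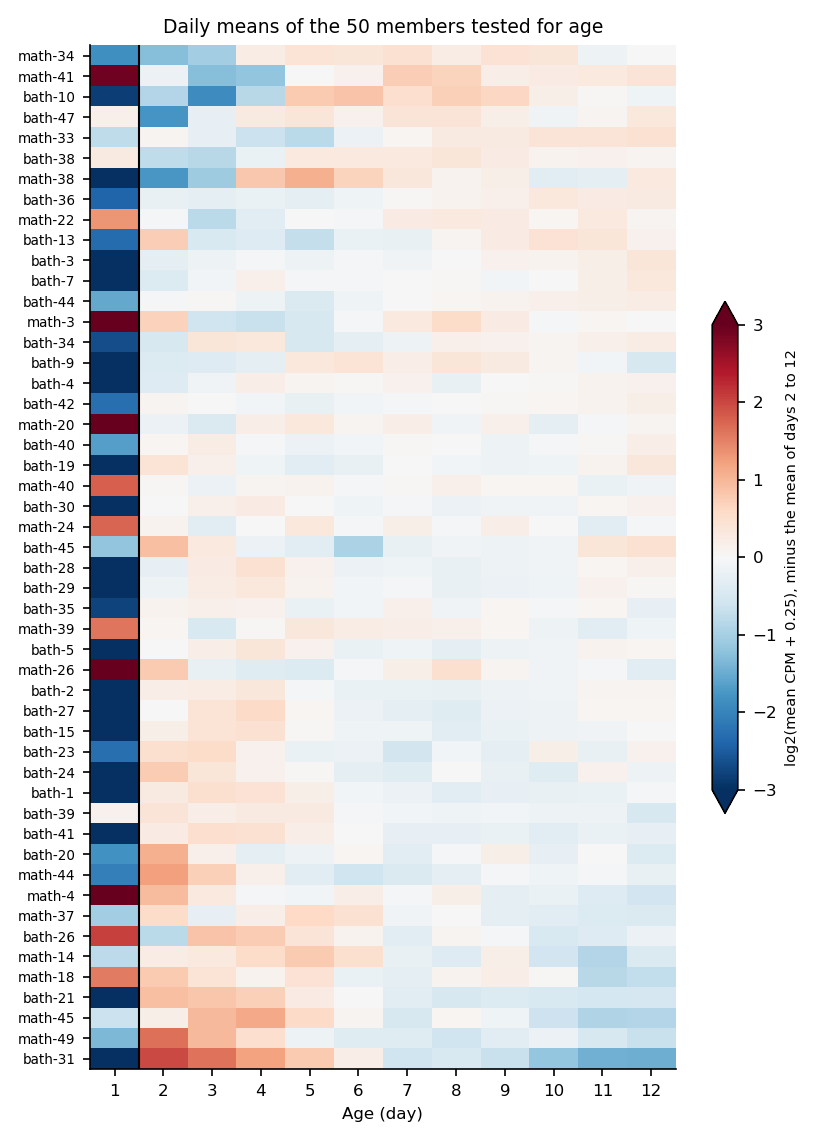
Daily mean level of the 50 members tested for age, as log2(CPM + 0.25) minus the member's mean over days 2 to 12, with colors limited at 3 and members ordered by linear age coefficient. The black line sets off day 1, which the age model did not use: many bath genes are at the lower color limit there, and several math genes at the upper.

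For 15 members no coefficient passed the threshold, among them bath-30 and bath-40 of the most abundant genes. The level of bath-40 was 201, 174 and 199 CPM on day 2 and 212 and 207 CPM on day 12, with a coefficient of 0.0047 ± 0.0163 (adjusted p = 0.80). In the day 4 replicate 2 and day 5 replicate 3 libraries it was at 112 and 82.0 CPM, its lowest values after day 1. For bath-30 the values were 83.0, 78.9 and 82.2 CPM, then 89.6 and 90.1 CPM, with a coefficient of -0.0034 ± 0.00872 (adjusted p = 0.728). Those of math-40 were 1.83, 2.04 and 2.11 CPM, then 1.08 and 2.47 CPM (0.000643 ± 0.0235, adjusted p = 0.981), and those of math-24 were 3.39, 5.26 and 3.90 CPM, then 3.02 and 4.45 CPM (-0.0037 ± 0.023, adjusted p = 0.887). Changes as small as these errors, and some larger ones, would not have passed the threshold.

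The ends of the series from day 2 were also set against each other, with days 2 and 3 (6 samples) as young and days 11 and 12 (5 samples) as old. This comparison uses samples of the age model and is no separate evidence. Of 48 members tested, 24 changed at an adjusted p under 0.01, where 62% of 12875 genes did. Rising members numbered 12, with a background of 31.1%, and falling members 12, with a background of 30.9%. The median log2 difference was 0.093 for bath, 0.0051 for math and 0.028 for all genes. With library size scaling, which moved the median of all genes to 0.395, 20 rose (background 46%) and 6 fell (background 18.9%). Without replicate 1, 15 of 48 members were called, 7 rising and 8 falling, where 2977 rose and 3000 fell of 12851 genes. Without replicate 2, 14 of 49 were called, 5 rising and 9 falling, where 3222 rose and 3397 fell of 13420 genes. With no replicate left out, 4002 rose and 3984 fell of 12875 genes, so the calls of all genes dropped as well.

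The largest falls were in genes already named. The level of bath-31 had its lowest, median and highest values at 6.19, 12.6 and 14.4 CPM in young and at 0.546, 1.13 and 1.39 CPM in old samples (log2 -3.43 ± 0.324, adjusted p = 1.83e-06). For math-49 they were 1.52, 2.42 and 3.55 CPM, then 0.282, 0.50 and 0.809 CPM (log2 -2.24 ± 0.287, adjusted p = 2.21e-05). For bath-21 they were 9.24, 10.2 and 11.2 CPM, then 3.14, 3.40 and 4.90 CPM (log2 -1.33 ± 0.167, adjusted p = 1.84e-05). In none of these genes did young and old samples overlap. They were chosen by age coefficients that used the same samples, and the share of all genes without such overlap was not counted. For bath-41 the young values of 245, 274 and 340 CPM and the old values of 181, 187 and 189 CPM did not overlap either (log2 -0.50 ± 0.0781, adjusted p = 0.000111), but the call was lost with library size scaling (log2 -0.135, adjusted p = 0.19).

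On the rising side, bath-38 had 15.3, 17.8 and 21.1 CPM as lowest, median and highest in young and 29.1, 35.2 and 37.6 CPM in old samples (log2 1.01 ± 0.111, adjusted p = 6.36e-06). The values of math-38 were 0.264, 1.29 and 1.77 CPM, then 1.88, 3.69 and 4.81 CPM (log2 1.69 ± 0.306, adjusted p = 0.000338), and those of bath-10 were 1.36, 1.88 and 4.24 CPM, then 4.73, 6.19 and 8.23 CPM (log2 1.53 ± 0.231, adjusted p = 8.18e-05). In all of these the groups were apart, but here too the share of all genes was not counted. The call of bath-10 was lost without day 3 (log2 0.90, adjusted p = 0.023). The differences of bath-47 and math-41 were 1.56 ± 0.324 (adjusted p = 0.000942) and 1.25 ± 0.336 (adjusted p = 0.00526), and that of math-41 lost its call without day 3 (log2 0.57, adjusted p = 0.23). For math-33 they were 148, 207 and 258 CPM, then 276, 285 and 294 CPM (log2 0.60 ± 0.109, adjusted p = 0.00034). Neither of the libraries that stood apart by length is among these young and old samples. With the trend on length removed, math-33 had a log2 difference of 0.144 and lost its call (adjusted p = 0.071), and it also lost it in a fit of all 34 samples (log2 0.58, adjusted p = 0.02). Without day 3 the difference was 0.376 and kept its call (adjusted p = 0.0039).

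Of the 23 members with too few counts for the age model, 4 were bath (bath-25, bath-33, bath-37 and bath-46) and 19 math. Day 1 held the highest daily mean for 7 of them: bath-37, bath-46, math-10, math-15, math-21, math-42 and math-46. A few others had values that differed between ages, and were picked out after their values were seen. The level of math-28 was at most 0.102 CPM in the young samples, and its lowest, median and highest values in the old samples were 1.35, 2.40 and 3.24 CPM. For bath-33 the young values were 0.577, 1.45 and 2.17 CPM and the old values 0.0432, 0.0899 and 0.141 CPM, although its reads may be shared with bath-47. Young and old samples did not overlap in either gene, which is no support because both were picked by these values. Low values in other samples kept both below the filter, so no test is given for them.

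CUL-3, the cullin to which BTB adaptors bind, and the proteins that assemble and regulate its ligase were examined as a list of 15 genes. From day 1 to day 2, 13 of these 15 rose and 0 fell, with a median log2 difference of 1.17. The level of cul-3 itself had daily means of 91.3 CPM on day 1, 314 CPM on day 2 and 268 CPM on day 12. It rose by 1.77 ± 0.112 on the log2 scale between days 1 and 2 (adjusted p = 6.5e-06), and its age coefficient was -0.0040 ± 0.014 log2 per day (adjusted p = 0.798). The adaptor gene mel-26 rose by 2.69 ± 0.122 between days 1 and 2 (adjusted p = 1.91e-06) and by 0.0348 ± 0.00707 per day after that (adjusted p = 4.91e-05). The RING subunit gene rbx-1 rose by 1.98 ± 0.113 (adjusted p = 4.42e-06) and then fell by 0.114 ± 0.0111 per day (adjusted p = 1.08e-10).

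In the age model 6 of the 15 rose and 5 fell, with a median of -0.0040. Those that fell included ned-8, the ubiquitin-like protein attached to cullins (-0.118 ± 0.00905 per day, adjusted p = 5.36e-13), and ubc-12, the enzyme that conjugates it (-0.122 ± 0.0119, adjusted p = 9.03e-11). Those that rose included csn-2, a subunit of the COP9 signalosome that removes NED-8 (0.106 ± 0.0111, adjusted p = 4.1e-10). Of the other listed subunits of the same complex, csn-4 and csn-6 also rose, csn-3 and csn-5 fell, and csn-1 was not called. The summed level of the 15 genes was 1000 to 1023 CPM on day 1, 2365 to 2553 CPM on day 2 and 2239 to 2316 CPM on day 12.

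Other BTB genes, those named btb or kel with eor-1, were matched for 22 of the 28 names listed. Between days 1 and 2, 6 rose and 5 fell of 14 tested, with a median log2 difference of 0.0065. These counts leave out genes near 0 on day 1 that were too low to test, such as btb-6, with daily means of 0.0193 CPM on day 1 and 59.7 CPM on day 2, btb-10 (0.0507 and 13.5 CPM) and btb-11 (0 and 10.9 CPM). In the age model 5 rose and 11 fell of 19, with a median of -0.064. Among the falling were btb-17 (-0.367 ± 0.0365 per day, adjusted p = 1.51e-10) and among the rising kel-10, a gene named for the kelch family (0.362 ± 0.0467, adjusted p = 3.05e-08). Of the 5 other cullins, scaffolds of other ubiquitin ligases, 3 rose and 1 fell between days 1 and 2, and 3 rose with age and 0 fell. The largest age coefficient among them was that of cul-6, at 0.358 ± 0.0244 per day (adjusted p = 4.06e-14).

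Marker genes also changed across days 2 to 12. Of the 15 oocyte mRNAs, 12 fell and 0 rose, and their summed level was 12354 to 12507 CPM on day 12. Of the 9 intestinal genes 8 fell and 0 rose, of the 8 larval molting genes tested 6 rose and 0 fell, of the 11 sperm mRNAs tested 7 rose and 0 fell, of the 10 neuronal genes 5 rose and 2 fell, and of the 8 muscle genes 2 rose and 5 fell. The part of these lists in the changes of single bath and math genes with age was not tested.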

How the data were processed

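The authors deposited raw counts of reads per gene for the whole series, which per the labels were made with STAR 2.7.3a and featureCounts on WBcel235. The settings for strand and for reads that map several times are not given in the sources used here. RNA was poly(A) selected, depleted of rRNA and primed with random hexamers. Of 20222 gene identifiers 19708 had a symbol, positions came from Ensembl release 115, a row for a transgene was left out, and 0 columns of single samples stayed unused. No sequences were used. The day in the label set each group. The replicate number of 1 day 12 sample differs between its label and its column, and it was used for its age. The sequencing batch is not given for these samples, so none was fitted.

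Genes that reached 5 counts in 75% of the fitted samples were tested with edgeR 4.0.16 (TMM, glmQLFit and glmQLFTest, R 4.3.3) as a polynomial of age of degree 3, as day 2 minus day 1, and as days 11 and 12 minus days 2 and 3. P-values were adjusted by Benjamini-Hochberg over all tested genes, with a threshold of 0.01. Alternatives were DESeq2 1.42.0, other scalings, filters and samples. The fits were tested on simulated data. The floors used for genes at 0 counts cover counting error only, and PCR copies are not independent molecules. The SEs come from the edgeR fits and, like the SDs, include the spread between samples. Full statistics are given for the 5 members of highest level, the 6 largest age coefficients in each direction, the 4 largest day 1 to day 2 differences in each direction, and 4 each with a quadratic coefficient alone and with none. The members and the gene lists were chosen with earlier results of these data known.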

Additional observations from a re-analysis of the deposited data

How the results depend on the processing

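Library size scaling in place of TMM gave 21 rising (background 50.8%) and 6 falling members (background 21.9%) with age. From young to old it gave 20 rising (background 46%) and 6 falling (background 18.9%). With at least 10 counts in every sample, day 1 to day 2 gave 22 changed and 12 rising of 25 members tested (background of rising 35.1%). Other alternatives moved these counts by no more than 1.5 times, apart from leaving out replicates from young to old. That gave 14 to 19 changed members, 5 to 9 rising and 8 to 10 falling. Over all genes the same fits gave 2977 to 3392 rising and 3000 to 3820 falling, against 4002 and 3984 in the main fit. Leaving out replicates gave 25 to 31 changed members for age, 9 to 13 rising and 12 to 14 falling. Over all genes these age fits gave 4660 to 4736 rising and 4022 to 4337 falling, against 5115 and 4699 in the main fit. For day 1 to day 2 they gave 27 to 39 changed members, 19 to 27 rising and 8 to 12 falling. Over all genes 2926 to 3943 rose and 2763 to 4211 fell there, against 4063 and 4316 in the main fit. Age coefficients turned for bath-30 (0.0402) and bath-29 (0.0373) with library size scaling, and, with day 1 included, for bath-41 (0.0713), bath-30 (0.163), bath-29 (0.160), bath-28 (0.163), bath-1 (0.0844), math-41 (-0.0248), math-20 (-0.171) and math-40 (-0.0884). The cause was not tested. For single members, 997 values kept their side of the threshold under an alternative, and also their direction wherever either fit passed it. Another 47 lost a call, 32 gained one and 10 turned with a call in either fit. Values that changed sign without a call in either fit are among the 997.

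Samples with the same replicate number did not deviate together (median correlation 0.0035 over 166 pairs on different days, against 0.0031 for other pairs), so the numbers were not taken as pairs. With a replicate block 38 members changed with age, 12 rising and 14 falling. From day 1 to day 2, 35 changed, and from young to old 17, 9 rising and 8 falling. Over all genes the block gave 5074 rising and 4677 falling of 13898 for age. For day 1 to day 2 it gave 3893 and 4068 of 12008, and for young to old 3243 and 3258 of 12927. Low counts limit the math genes most, since 19 of 37 could not be tested for age. The 2 libraries in which long genes were low weigh on math-33, and without them 34 members changed with age, 14 rising and 14 falling. Of all 14037 genes tested without them, 5371 rose and 4848 fell. This alternative, the removal of the length trend and the filter by 3 of 6 samples were chosen after seeing the data.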
